A study of Mus musculus with 78 samples.

Results

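Genes that make, move or spend acetate and acetyl-CoA were followed in the brains of mice with and without ACSS2, the enzyme that links ethanol-derived acetate to the acetyl-CoA pool. The 9 genes, Acss2, Acss1, Acss3, Acly, Slc25a1, Nat8l, Aspa, Crat and Acot12, were chosen by name as the sources and sinks of acetate and acetyl-CoA, and all 9 were found among the 55367 genes of both deposited count tables. The question asked of them was whether any other route rose where ACSS2 was lost.

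The KO mice carried a constitutive deletion in Acss2, made with CRISPR guides in the introns that flank a stretch from exon 3 to exon 7, and founders were crossed back to C57Bl6/J. WT mice are the controls without the deletion. Every mouse, KO or WT, was a single-housed adult of stated sex and no stated age, and drank ethanol by the drinking in the dark protocol, which models binges: after 1 week with a pair of bottles, 15% ethanol by volume and water were offered for 2 h on days 1 to 3 and for 4 h on day 4, and in the second week ethanol alone was offered in the sessions. No mouse without ethanol is among the samples used here, so the levels below are those of drinking mice. Poly(A) RNA from 7 dissected regions of 12 mice, 3 for each sex and genotype, gave 78 libraries, 40 KO and 38 WT. The deletion is in every cell of the body, so a change in brain cannot be told apart from one that follows from its loss elsewhere.

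Acetyl-CoA is the donor of acetyl groups for lipid synthesis and for histone acetylation, and it cannot cross the inner mitochondrial membrane. In the cytosol and nucleus it is made by ACSS2, which ligates acetate to coenzyme A, and by ACLY, which splits citrate that SLC25A1 has carried out of the mitochondrion. ACSS1 and ACSS3 are the mitochondrial members of the ACSS family, and ACSS3 acts mainly on propionate. In neurons NAT8L spends acetyl-CoA to make N-acetylaspartate, and in oligodendrocytes ASPA cleaves that compound and frees acetate, a known source of acetyl units for myelin lipids. CRAT moves acetyl groups between coenzyme A and carnitine, and ACOT12 hydrolyses acetyl-CoA back to acetate, mainly in liver.

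The sequences that carry the Acss2 result are the exon joins at the borders of the deleted stretch. They are shown because a transcript made across the deletion can keep most of the gene's exons and so still be counted. Each run is 40 bases of transcript, 5′ to 3′, with the last 20 bases of the upstream exon in lower case and the first 20 bases of the downstream exon in capitals:
Exon 2 to exon 3 (intact start of the stretch, Acss2-201): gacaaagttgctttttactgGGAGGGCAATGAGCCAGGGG
Exon 7 to exon 8 (intact end of the stretch, Acss2-201): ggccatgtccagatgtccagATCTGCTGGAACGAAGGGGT
Exon 2 to exon 8 (the join without the stretch, Acss2-205): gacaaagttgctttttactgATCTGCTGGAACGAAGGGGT
The last of these joins is also annotated. GENCODE M21 holds a transcript, Acss2-205, that joins exon 2, which ends at base 155522176 of chromosome 2 (GRCm38, plus strand), to exon 8, which starts at base 155555854, and classes it as subject to nonsense-mediated decay. In the coding transcript Acss2-201, with 18 exons and 2931 bases, exons 3 to 7 lie between bases 155549191 and 155550469 and sum to 460 bases, which leaves 84.3% of the transcript. That sum leaves a remainder of 1 on division by 3, so the join of exon 2 to exon 8 shifts the reading frame. The deposited values are counts per gene, so which of these joins the reads of a library crossed cannot be told from them.

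Library depth and several libraries that stand apart bear on every value. The 47 libraries of amygdala, dorsal hippocampus, dorsal striatum and ventral striatum held 4454420 to 14487778 counts, and the 31 of cortex, prefrontal cortex and ventral hippocampus 629635 to 1228828. Levels are CPM, a library's counts of a gene scaled to a common total. A count of 3, taken as the floor, was 0.207 to 0.673 CPM in the deeper libraries and 2.44 to 4.76 CPM in the shallower ones, for counting error only. In 1 of 78 libraries, labelled prefrontal cortex of a female WT mouse (mouse 23), Xist and Ddx3y went against the labelled sex. Markers went against the labelled region in 5 others, scored as the mean log2(CPM + 1) of markers listed for striatal projection neurons. In dorsal striatum the score was 4.88 in KO mouse 10 and 3.97 in WT mouse 23, against 8.46 to 9.46 in the other 10 libraries. In ventral striatum it was 6.29 in KO mouse 10 and 5.26 in WT mouse 13, against 7.06 to 9.42. In ventral hippocampus it was 8.35 in KO mouse 6, against 3.24 to 4.29 in the other 11. A further library, amygdala of WT mouse 23, had the highest score for cortical excitatory neurons of its region, 6.96 against 4.37 to 6.19. Results below are for all libraries as labelled, and values without these libraries, a choice made after seeing the data, are given beside results of these regions and of the sums over regions.

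Acss2 (chr2:155517948-155585724, plus strand) was lower in every KO library than in any WT library of the series. KO libraries ranged from 0.971 to 13.96 CPM and WT libraries from 35.9 to 73.8 CPM, and KO means were 10.4% to 16.3% of WT means across the 7 regions. The residual KO level was thus low but not 0, and in the shallower libraries it rested on as few as 1 count.

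In dorsal striatum the lowest, median and highest Acss2 levels were 5.10, 7.22 and 7.82 CPM in 6 KO libraries and 35.9, 48.3 and 73.8 CPM in 6 WT libraries. In ventral striatum they were 3.01, 6.42 and 10.3 CPM in KO and 39.8, 49.9 and 59.1 CPM in WT. In dorsal hippocampus they were 4.47, 6.91 and 8.51 CPM in KO and 42.8, 50.8 and 69.6 CPM in WT. The genotypes were far apart in each of these deeper regions, and the WT levels varied between mice more widely in CPM than the KO levels did. In ventral hippocampus the levels were 0.971, 6.42 and 9.60 CPM in KO and 49.1, 54.4 and 71.7 CPM in WT. In amygdala the 6 KO libraries spanned 5.56 to 8.64 CPM, and the 5 WT libraries read 42.3, 42.4, 44.1, 51.4 and 64.9 CPM, the highest of them in mouse 23. In cortex the 6 KO libraries spanned 3.30 to 13.96 CPM and the 5 WT libraries read 48.6, 59.4, 59.9, 61.8 and 62.7 CPM. The prefrontal cortex, with 4 libraries a genotype, read 7.10, 7.32, 7.91 and 12.7 CPM in KO and 45.5, 50.02, 52.2 and 67.3 CPM in WT. KO and WT ranges did not overlap in any of the 7 regions. Ranges without overlap were held by 0.176% of all genes tested in amygdala, 0.625% in cortex, 0.0983% in dorsal hippocampus, 0.0562% in dorsal striatum, 0.143% in ventral hippocampus, 0.404% in ventral striatum and 3.87% in prefrontal cortex.

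**Figure D1:**
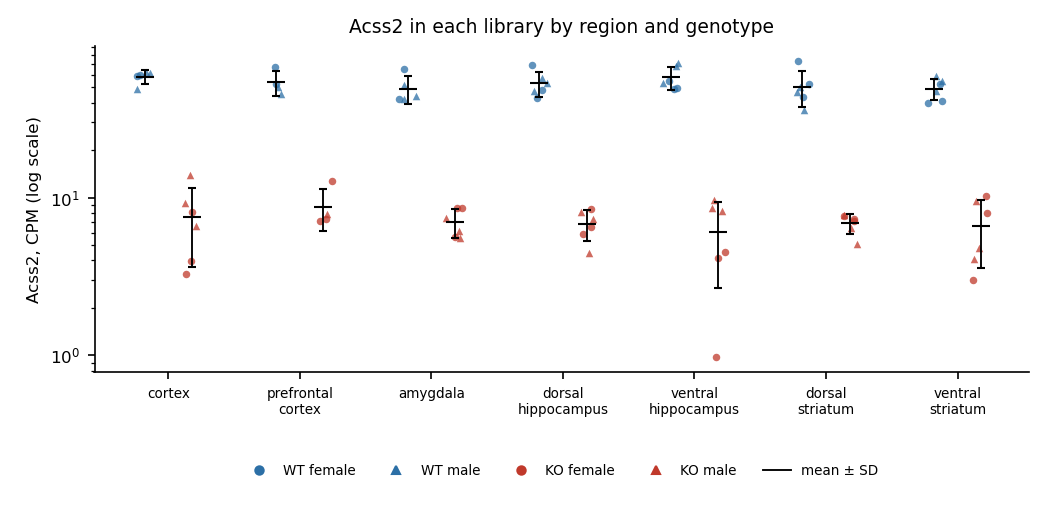
Acss2 level in CPM on a log axis for each of the 78 libraries, by region and genotype, with females as circles, males as triangles and the mean ± SD of each group as bars. The highest KO library, at 13.96 CPM in cortex, lies below the lowest WT library, at 35.9 CPM in dorsal striatum.

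The fitted Acss2 differences were alike in size between regions. The log2 fold change of KO over WT from edgeR's quasi-likelihood test, with Benjamini-Hochberg adjustment over all genes of a region's fit, was -2.82 ± 0.15 (SE) in amygdala (adjusted p = 1.78e-05) and -3.00 ± 0.23 in cortex (adjusted p = 1.06e-08). By the same test it was -2.95 ± 0.16 in dorsal hippocampus (adjusted p = 1.38e-06) and -3.30 ± 0.23 in ventral hippocampus (adjusted p = 1.01e-06). It was -2.86 ± 0.17 in dorsal striatum (adjusted p = 1.27e-05), -2.88 ± 0.25 in ventral striatum (adjusted p = 0.000529) and -2.71 ± 0.24 in prefrontal cortex (adjusted p = 9.31e-05), again with edgeR. Acss2 was the only gene of all those tested with an adjusted p under 0.05 in every region except prefrontal cortex. The shares of genes called were 0.00675% in amygdala, 0.00977% in cortex, 0.00702% in dorsal hippocampus, 0.00702% in dorsal striatum, 0.00951% in ventral hippocampus and 0.00721% in ventral striatum. In prefrontal cortex 11 of 11300 genes were called, 0.0973%. Without the libraries that stand apart Acss2 was still called, at -2.69 in amygdala, -2.80 in dorsal striatum, -3.28 in ventral hippocampus and -2.99 in ventral striatum. Within a sex, with 3 or fewer libraries a group, the fold changes in dorsal striatum, ventral striatum and female amygdala were of like size and no longer passed the threshold over all genes.

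The reads left in KO are uncertain in origin for a further reason. Of the union of Acss2 exons, 9.12% overlaps exons of Gss, Ggt7 or the antisense gene Acss2os on the other strand, and the library kit does not keep strand. The counting strand is not given, so whether reads from those genes entered the KO level is not known, and their part was not tested.

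No other member was called between the genotypes, in any region or over all mice. The 8 other members gave 46 tests in the 7 regions, of which 0 passed an adjusted p of 0.05 in edgeR's quasi-likelihood test and 3 had an unadjusted p under 0.05, Aspa and Nat8l in prefrontal cortex and Acly in ventral hippocampus. DESeq2's Wald test also called 0 of them. Over all genes tested, the share with an unadjusted p under 0.05 ran from 1.59% in dorsal striatum to 8.58% in prefrontal cortex. Acot12 in every region, and Acss3 in cortex, prefrontal cortex and ventral hippocampus, had too few counts to be tested.

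Limits on a change shared by regions came from counts summed for each mouse over the 4 regions in which all 12 mice had a library, which are dorsal and ventral striatum and dorsal and ventral hippocampus. These sums held 18431701 to 29245883 counts a mouse. Counts were added without weights, and a ventral hippocampus library held at most 1228828 of them. The sums thus stand mainly for dorsal striatum, ventral striatum and dorsal hippocampus, and their intervals say little about ventral hippocampus alone. All 9 members passed the filter in the sums, and Acss2 was the only gene called among 16672, a share of 0.006%. Acss2 levels were 5.80, 6.83 and 7.64 CPM (lowest, median and highest of 6 KO mice) and 45.2, 49.7 and 61.2 CPM (6 WT mice). This is a log2 fold change of -2.89 ± 0.08 (edgeR's quasi-likelihood test, adjusted p = 8.47e-10), and -2.83 without mice 6, 10, 13 and 23. For each of the other 8 members the KO and WT ranges overlapped, and the adjusted p from the same test was 1.

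**Figure D2:**
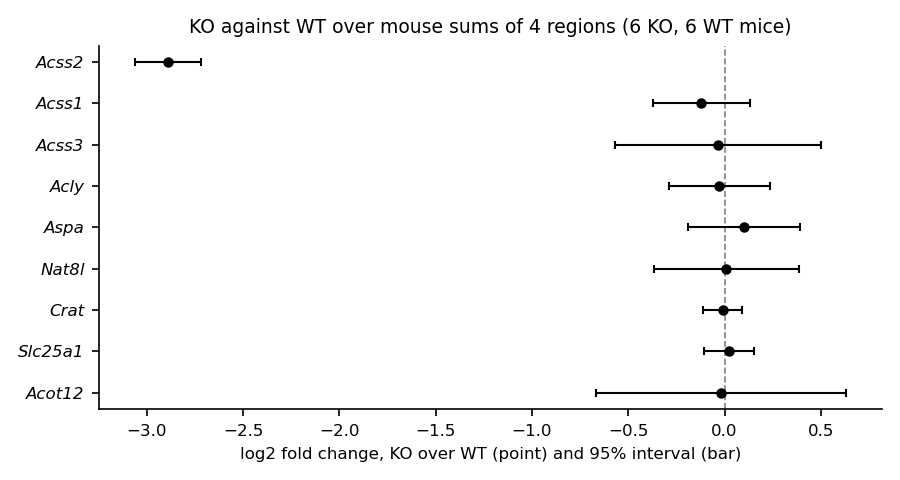
Log2 fold change of KO over WT (points) with its 95% interval (bars) for the 9 members, from counts summed for each of 12 mice over 4 regions. The bar of Acss2 lies near -2.89, and the bars of the other 8 members cross 0, with the widest for Acot12 and Acss3.

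The mitochondrial acetate ligase Acss1 (chr2:150618105-150668500, minus strand) had overlapping levels in KO and WT mice. Levels summed per mouse were 24.4, 28.2 and 32.9 CPM (lowest, median, highest) in KO and 24.6, 29.2 and 38.9 CPM in WT. The ranges nearly coincided at their lower end, and the WT range reached higher. KO over WT it came to -0.12 on the log2 scale, with a 95% interval from -0.37 to 0.13, which runs from a level 22.6% below to one 9.39% above WT. Without mice 6, 10, 13 and 23 it was -0.06, with an interval from -0.33 to 0.22, or from 20.4% below to 16.1% above WT. Among regions the lowest KO mean relative to WT was in ventral striatum, at 27.96 ± 5.60 CPM (SD) in KO and 36.8 ± 13.1 CPM in WT, and this difference, -0.39 ± 0.20 on the log2 scale, had an adjusted p of 0.648 in edgeR's quasi-likelihood test. Without the 2 ventral striatum libraries that stand apart it was -0.37.

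Acss3 (chr10:106933517-107123668, minus strand), the propionate-preferring member, was scarce. It had a count in 70 of 78 libraries and at most 81 counts in one. Summed over regions it was 1.44, 2.40 and 3.90 CPM in KO and 1.56, 2.35 and 3.69 CPM in WT, with a log2 fold change of -0.03 and a 95% interval from -0.57 to 0.50. The overlap was nearly complete, and the interval runs from 32.5% below to 41.5% above WT. Without the mice that have a library standing apart among the 4 regions (mice 6, 10, 13 and 23), the log2 fold change was 0.25. Ppfia2, which lies on the other strand, overlaps 33.9% of the exonic bases of Acss3. The counting strand is not given, so whether reads of Ppfia2 entered the Acss3 counts is not known.

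ATP citrate lyase, Acly (chr11:100476353-100528000, minus strand), is the other enzyme that makes acetyl-CoA outside the mitochondrion. Its summed levels were 181, 272 and 278 CPM in KO and 211, 259 and 323 CPM in WT. The KO range lay mostly inside the WT range except for mouse 10, at 181 CPM. Acly differed by -0.03 on the log2 scale, with a 95% interval from -0.29 to 0.23, and it was -0.01 without mice 6, 10, 13 and 23. Acly carried 3562 to 7591 counts in each mouse.

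By region, Acly differed most between genotypes in ventral hippocampus. Its levels there were 160, 203 and 205 CPM (lowest, median, highest of 6) in KO and 139, 153 and 186 CPM in WT, so that the ranges overlapped and 4 of the 6 KO libraries lay above all WT libraries. This gave a log2 fold change of 0.30 ± 0.11, with an unadjusted p of 0.0143 and an adjusted p of 0.965 in edgeR's quasi-likelihood test. Without KO mouse 6, the ventral hippocampus library with striatal markers, it was 0.26 with an adjusted p of 0.927. Markers of other cells moved there too: means of 11 of 11 oligodendrocyte markers and of 9 of 9 striatal projection neuron markers were higher in KO. The summed oligodendrocyte markers were 1681 to 10075 CPM in KO and 2586 to 5855 CPM in WT. The summed striatal markers were 169 to 4180 CPM in KO and 163 to 236 CPM in WT. Mouse 6, which is included in the KO means, held the highest value of both sums. The other 11 libraries of the region reached 6935 CPM for oligodendrocyte markers and 291 CPM for striatal markers. None of these markers was at 0 in all libraries, and their part in the Acly difference was not tested.

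Slc25a1 (chr16:17925223-17928219, minus strand), the citrate carrier that supplies ACLY, had the narrowest interval after Crat. Its summed levels were 29.5, 36.1 and 37.9 CPM in KO and 32.7, 35.2 and 37.8 CPM in WT. The medians and the upper ends nearly matched. Its log2 fold change was 0.02, with a 95% interval from -0.11 to 0.15, that is from 7.29% below to 11.2% above WT. Without mice 6, 10, 13 and 23 it was 0.09, and the interval ran from 2.67% below to 16.3% above WT.

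Nat8l (chr5:33995984-34005916, plus strand), the N-acetylaspartate synthase, had summed levels of 262, 281 and 501 CPM in KO and 280.3, 300.3 and 466.1 CPM in WT. Its highest KO mouse was mouse 10 and its highest WT mouse was mouse 23, the mice whose dorsal striatum libraries stand apart. Between genotypes Nat8l differed by 0.01 on the log2 scale, with a 95% interval from -0.37 to 0.38. Without mice 6, 10, 13 and 23 it was -0.0048, and the interval narrowed to -0.21 to 0.20.

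The same libraries stood out in the Nat8l values by region. In dorsal striatum Nat8l was 698 CPM in KO mouse 10 and 570.3 CPM in WT mouse 23, against 219 to 303 CPM in the other KO libraries and 209 to 289.7 CPM in the other WT libraries. The log2 fold change there had a 95% interval from -0.67 to 0.92 with all libraries and from -0.22 to 0.29 without these. In amygdala Nat8l was 679.6 CPM in WT mouse 23 and 239.8 to 360.3 CPM in the other WT libraries, and the log2 fold change of -0.46 moved to -0.06 without that library.

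In prefrontal cortex Nat8l was lower in all 4 KO libraries than in all 4 WT libraries. The KO levels were 248, 308, 357 and 360.2 CPM and the WT levels 368, 371, 479 and 531 CPM. The gap between the groups, from 360.2 to 368 CPM, was small beside the spread within WT. Ranges without overlap were held, as given above, by 3.87% of all genes tested in this region. Fitted, the difference was a log2 fold change of -0.46 ± 0.16, with an unadjusted p of 0.0117 and an adjusted p of 0.370 in edgeR's quasi-likelihood test, and -0.56 with an adjusted p of 0.201 without the library of mouse 23.

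Aspa (chr11:73304992-73329596, minus strand), the aspartoacylase of oligodendrocytes, showed the opposite direction in the same libraries. Its WT levels in prefrontal cortex were 6.61, 7.35, 7.41 and 8.57 CPM, and its KO levels 7.03 CPM in the male (mouse 1) and 17.95, 18.7 and 28.4 CPM in the 3 females. These are 7 to 9 counts a WT library and 8 to 32 counts a KO library, and the male KO library lay within the WT range. The log2 fold change was 1.02 ± 0.37, with an unadjusted p of 0.0149 and an adjusted p of 0.397 in edgeR's quasi-likelihood test. It was 0.92 without the library of mouse 23 and 1.45 among females, with adjusted p of 0.536 and 0.172 by the same test. The fit among females set 3 KO libraries against 2 WT libraries. These WT libraries include that of mouse 23, whose Xist and Ddx3y went against the labelled sex.

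Oligodendrocyte markers moved with Aspa in these prefrontal cortex libraries. Means of 11 of 11 were higher in KO, with sums of 2671 to 11970 CPM in KO and 1819 to 3461 CPM in WT, and none was at 0. Striatal projection neuron markers moved as well, with 9 of 9 means higher in KO, sums of 712 to 2134 CPM in KO against 234 to 396 CPM in WT, and ranges that did not overlap for 6 of the 9. General neuron markers were split, with 4 of 8 means higher in KO. They summed to 6596 to 7532 CPM in KO and 7314 to 7735 CPM in WT. Cortical excitatory neuron markers were split too, again with 4 of 8 means higher in KO. These added up to 1667 to 2170 CPM in KO and 1853 to 2291 CPM in WT. The part of these markers in the Aspa and Nat8l differences was not tested, and in bulk RNA fewer cells of a type and less RNA per cell cannot be told apart.

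Summed over the 4 regions, Aspa was 20.1, 23.3 and 32.6 CPM in KO and 18.1, 23.3 and 29.3 CPM in WT. The medians matched, and the log2 fold change was 0.10 with a 95% interval from -0.19 to 0.39, and 0.14 with an interval from -0.28 to 0.55 without mice 6, 10, 13 and 23. In amygdala Aspa differed the other way than in prefrontal cortex, at 10.5 ± 7.45 CPM (SD, n = 6) in KO and 15.1 ± 10.3 CPM (SD, n = 5) in WT. The log2 fold change there was -0.81 with all libraries and -1.15 without WT mouse 23, with adjusted p of 0.994 and 0.905 in edgeR's quasi-likelihood test. Means of 0 of 11 oligodendrocyte markers were higher in KO in amygdala, and their sums were 1117 to 6782 CPM in KO and 1545 to 11226 CPM in WT, a difference in the same direction as that of Aspa.

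Crat (chr2:30400471-30415813, minus strand), the carnitine acetyltransferase, had the narrowest interval of the members. Over mice it was 43.5, 46.8 and 50.4 CPM in KO and 43.6, 47.1 and 51.9 CPM in WT, with a log2 fold change of -0.01 and a 95% interval from -0.11 to 0.09. The interval runs from 7.31% below to 6.52% above WT, and from 6.39% below to 11.6% above without mice 6, 10, 13 and 23. Exons of genes on the other strand, Dolpp1 and Gm16323, overlap 8.72% of its exonic bases.

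Acot12 (chr13:91741512-91786148, plus strand), the acetyl-CoA hydrolase of liver, was close to the limit of detection. It had a count in 48 of 78 libraries, no more than 7 counts in any of them and 149 in all, and 0 counts in all 19 libraries of cortex and prefrontal cortex, where the floor is above 2 CPM. Summed, it was 0.152, 0.455 and 0.691 CPM in KO and 0.352, 0.431 and 0.688 CPM in WT. The log2 fold change was -0.02, with a 95% interval from -0.67 to 0.63. This interval runs from 37.1% below to 55.0% above WT, and changes inside it are compatible with these values. Without mice 6, 10, 13 and 23 the log2 fold change was 0.26, with an interval from -0.48 to 0.99.

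**Figure D3:**
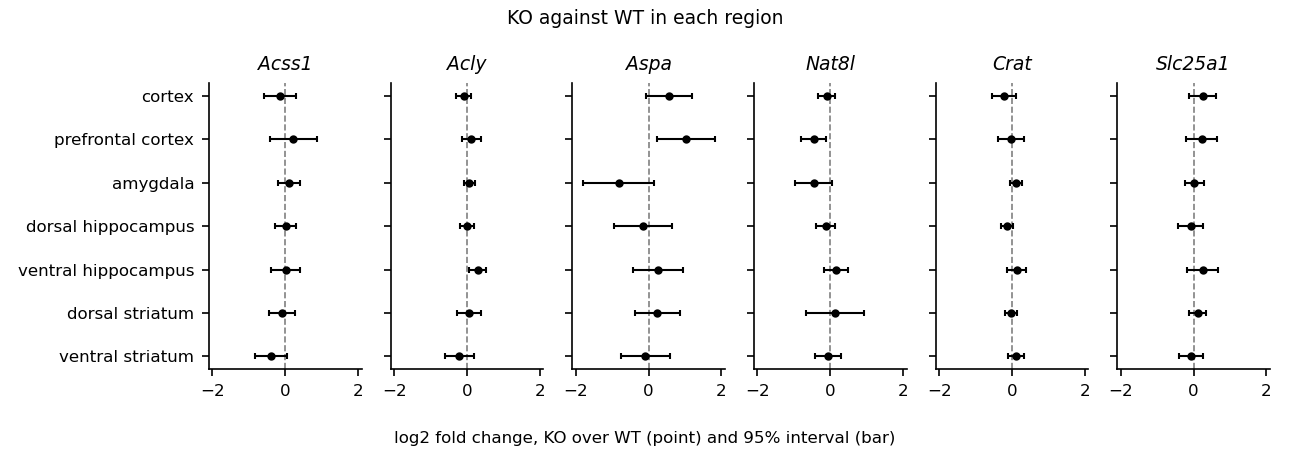
Log2 fold change of KO over WT (points) with its 95% interval (bars) in each of 7 regions for Acss1, Acly, Aspa, Nat8l, Crat and Slc25a1, the members other than Acss2 tested in all of them. The intervals that lie off 0 are those of Aspa (1.02) and Nat8l (-0.46) in prefrontal cortex and of Acly (0.30) in ventral hippocampus, and none passed the adjusted threshold.

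No difference between the sexes in a member's response to the deletion was called. The interaction of sex and genotype was tested for 46 combinations of member and region in 6 regions. None had an adjusted p under 0.05 in edgeR's quasi-likelihood test, and 0% of all genes were called in each of these regions. The 3 with an unadjusted p under 0.05 were Slc25a1 in ventral hippocampus, Acss2 in ventral hippocampus and Slc25a1 in ventral striatum.

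In ventral hippocampus Slc25a1 was 40.6, 41.2 and 50.4 CPM in male KO libraries and 20.6, 23.8 and 30.4 CPM in male WT libraries. In females it was 27.2, 27.2 and 32.2 CPM in KO and 27.8, 38.7 and 39.5 CPM in WT. The male groups did not overlap and the female groups did, on 13 to 49 counts a library. Among all genes tested in these males, 12.4% had groups without overlap, and 4 members other than Acss2 were among them, Slc25a1, Acly, Aspa and Nat8l. The male minus female difference of the log2 fold changes was 1.02 ± 0.33 (adjusted p = 0.720, edgeR's quasi-likelihood test), and 1.15 without mouse 6 (adjusted p = 0.452).

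In ventral striatum the Slc25a1 difference between the sexes had the other sign. Male KO libraries read 26.3, 36.5 and 46.96 CPM and male WT libraries 39.97, 51.2 and 54.5 CPM, while female KO libraries read 42.99, 45.5 and 47.8 CPM and female WT libraries 36.1, 38.5 and 40.1 CPM. The female groups did not overlap here, as for 7.55% of all genes tested in these females, and the male groups did. The interaction was -0.59 ± 0.27 (adjusted p = 0.943, edgeR's quasi-likelihood test), and -0.54 without mice 10 and 13.

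Acss2 in ventral hippocampus was 0.971, 4.15 and 4.54 CPM in female KO libraries and 8.29, 8.63 and 9.60 CPM in male KO libraries. WT levels were 49.1, 49.7 and 55.1 CPM in females and 53.6, 68.3 and 71.7 CPM in males. The female KO values rest on 1 to 4 counts, and the interaction of 1.095 ± 0.50 had an adjusted p of 0.733 in edgeR's quasi-likelihood test. Without mouse 6 it was 1.40 (adjusted p = 0.659). Leaving out mouse 6 also brought the ventral hippocampus interactions of Aspa (1.50 ± 0.58, adjusted p = 0.598) and Nat8l (0.72 ± 0.29, adjusted p = 0.628) to an unadjusted p under 0.05 in the same test.

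No member was called between the sexes over mice. Of 16672 genes, 9 were called for sex (0.054%). The smallest unadjusted p among members was that of Acss3, lower in males by a log2 fold change of -0.55 ± 0.25 (adjusted p = 1.00, edgeR's quasi-likelihood test). Its summed levels were 1.44 to 2.22 CPM in male KO, 1.56 to 3.69 CPM in male WT, 2.58 to 3.90 CPM in female KO and 2.01 to 3.21 CPM in female WT mice. The sexes overlapped. Without mice 6, 10, 13 and 23 the Acss3 difference was -0.61 (adjusted p = 0.988, edgeR's quasi-likelihood test), and Acss1 was lower in males by a log2 fold change of -0.28 with an unadjusted p of 0.0424 and the same adjusted p. Counts of males and females were deposited in separate tables, so sex and table cannot be told apart in these values.

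Across the 7 regions of WT mice, 4 members varied, 4 did not pass the test and Acot12 had too few counts to be tested. The test was fitted on the 38 WT libraries. An F test over regions by edgeR's quasi-likelihood test gave adjusted p of 3.32e-11 for Acly, 3.09e-05 for Nat8l, 0.00174 for Aspa and 0.0130 for Slc25a1, and 62.6% of all genes passed it. In pairs of regions, 26 of 168 tests of members were called, beside 18.7% of such tests over all genes. Regions of like depth gave 6 of 48 calls among the deeper and 2 of 24 among the shallower regions, and pairs that mix depths gave 18 of 96. In the mixed pairs region and depth cannot be told apart.

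Acly was highest in the striatum. Its WT levels were 259, 365 and 539 CPM (lowest, median, highest of 6) in ventral striatum and 213, 297 and 355 CPM in dorsal striatum, with means of 376 ± 92.3 and 292 ± 47.4 CPM (SD). Means in the other 5 regions ran from 156 ± 17.7 CPM in ventral hippocampus to 203 ± 24.5 CPM in prefrontal cortex. Dorsal striatum overlapped the other regions through the library of mouse 23, at 213 CPM, which stands apart by its markers, and without it the mean was 308 ± 30.9 CPM. Each striatal region was called above each of the other 5, which makes 10 of 21 pairs, with or without the libraries that stand apart. The neighbours at the top, ventral and dorsal striatum, differed by 0.32 ± 0.11 on the log2 scale without passing the test (adjusted p = 0.148, edgeR's quasi-likelihood test).

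Slc25a1 was also highest in ventral striatum. Its WT mean was highest in ventral striatum, at 43.4 ± 7.55 CPM (SD, n = 6), and lowest in cortex, at 26.4 ± 4.79 CPM (SD, n = 5). Ventral striatum was called above cortex, dorsal hippocampus, prefrontal cortex and ventral hippocampus, which makes 4 pairs. The ranges of the highest and the lowest region did not overlap, at 36.1 to 54.5 CPM and 21.96 to 34.5 CPM. The 4 pairs became 3 without the libraries that stand apart, and 1 without WT mouse 3 or WT mouse 12.

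Nat8l was highest in cortex. Its WT levels there were 554, 586, 669, 707 and 877 CPM, with a mean of 679 ± 127 CPM (SD). The next region, prefrontal cortex, had a mean of 437 ± 80.8 CPM (SD, n = 4), and its highest library, at 531 CPM, lay below the lowest of cortex. Cortex was called above each of the other 6 regions, and the difference from prefrontal cortex was 0.73 ± 0.24 on the log2 scale (adjusted p = 0.0444, edgeR's quasi-likelihood test). The order below prefrontal cortex was amygdala, dorsal hippocampus, ventral striatum, dorsal striatum and ventral hippocampus, and no neighbours in it were called apart. In that order the amygdala mean of 378 CPM and the dorsal striatum mean of 298 CPM each held the library of mouse 23 and were 302 ± 49.8 and 244 ± 32.1 CPM without it. The count of called pairs was 6 with all libraries, 10 without those that stand apart and 11 without WT mouse 23 altogether.

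Aspa had the widest regional range of the members tested, with the mean of the highest region 4.00 times that of the lowest. At the low end, in prefrontal cortex, Aspa rested on 7 to 9 counts a WT library. Its WT mean was 29.9 ± 10.9 CPM (SD, n = 6) in dorsal striatum, 23.1 ± 8.65 CPM in ventral striatum and 7.48 ± 0.81 CPM (SD, n = 4) in prefrontal cortex. Dorsal striatum was called above amygdala, cortex, prefrontal cortex and ventral hippocampus, and ventral striatum above cortex and prefrontal cortex. Libraries of a region spread widely, as in WT dorsal hippocampus, where Aspa ran from 5.51 to 38.9 CPM. The 6 called pairs became 2 without WT mouse 3 or WT mouse 11 and 3 without WT mouse 12 or WT mouse 13.

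**Figure D4:**
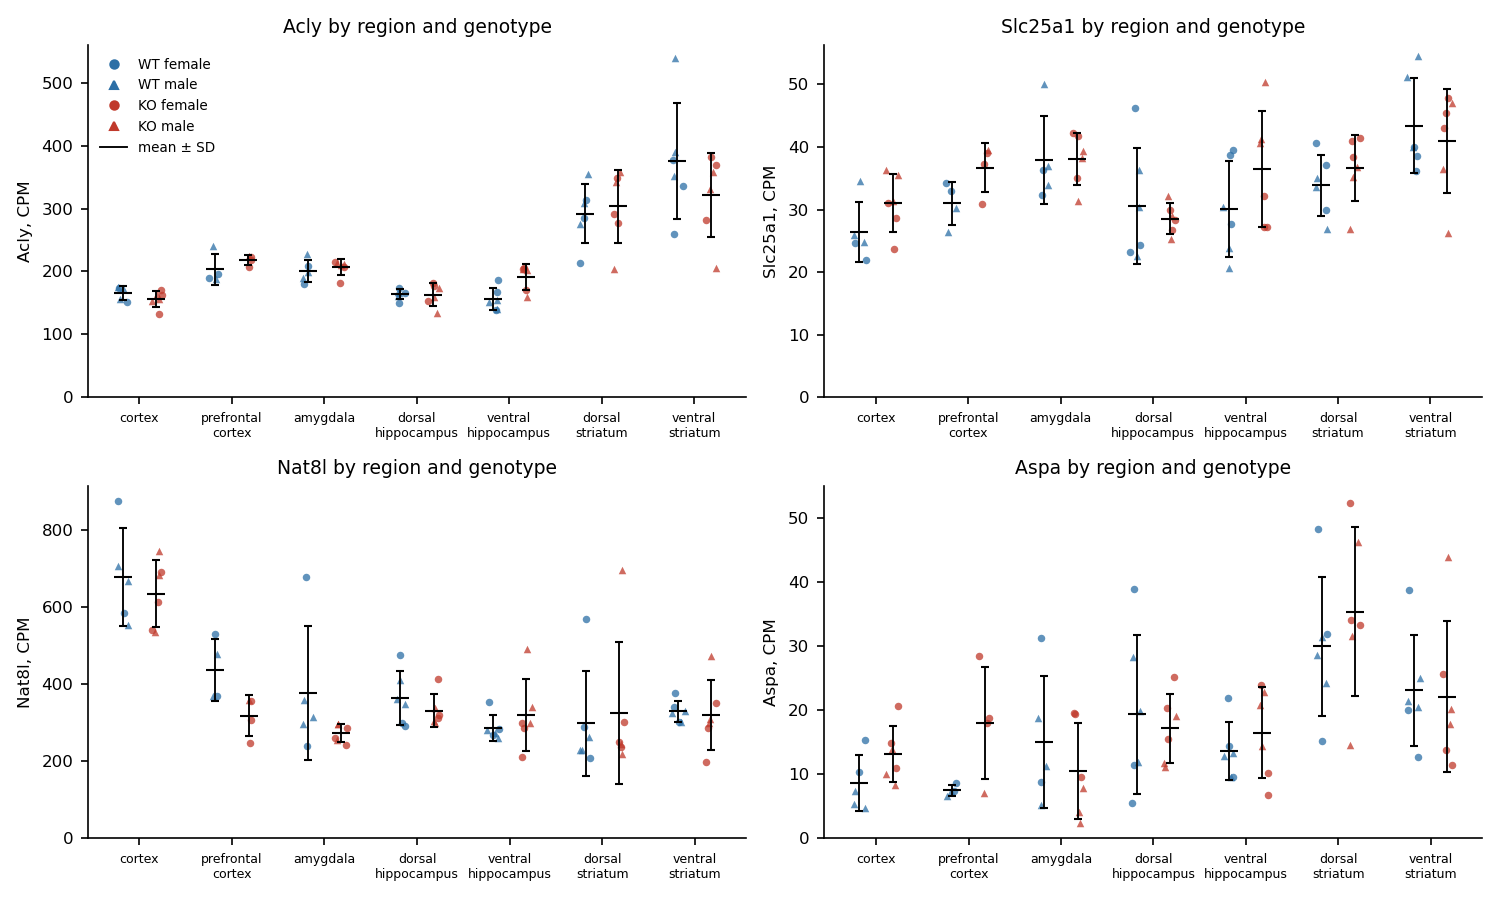
Levels in CPM of Acly, Slc25a1, Nat8l and Aspa in each library by region and genotype, with females as circles, males as triangles and the mean ± SD of each group as bars. Acly is highest in the 2 striatal regions and Nat8l in cortex, and the single high Nat8l points in dorsal striatum are KO mouse 10 (698 CPM) and WT mouse 23 (570.3 CPM).

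Acss2, Acss1, Acss3 and Crat gave no called pair of regions. The adjusted p of the F test by edgeR's quasi-likelihood test was 0.480 for Acss2, 0.461 for Acss1, 0.764 for Acss3 and 0.514 for Crat. The mean of the highest region was 1.19 times that of the lowest for Acss2 and for Crat and 1.37 times for Acss1. The call depended on libraries of mouse 23 for Acss2: without the libraries that stand apart the F test gave an adjusted p of 0.0217 and 2 called pairs, cortex above amygdala and cortex above dorsal striatum, and without WT mouse 23 altogether 4 pairs were called. The call of Crat changed when KO libraries were included with the mouse as a replicate block, where its F test gave an adjusted p of 0.0467 and 3 pairs were called.

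Compared between genes per kilobase of exon, WT levels were ordered Nat8l, Acly, Slc25a1, Crat, Acss1, Acss2, Aspa, Acss3 and Acot12. Averaged over 7 regions they were 59.4 CPM per kb for Nat8l, 42.2 for Acly, 15.4 for Slc25a1, 8.80 for Crat, 7.51 for Acss1, 5.23 for Acss2, 2.81 for Aspa, 0.386 for Acss3 and 0.0879 for Acot12. The order in the middle depends on the length used. Per kilobase of the longest coding transcript, Acss2 was 18.1 and Aspa 9.58 CPM per kb, against 11.2 for Crat and 8.57 for Acss1. By either length Acly was above Acss2, and Acss2 and Acss1 changed places between the measures.

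Genes whose levels moved most like those of a member were ranked by Pearson's r of log2 CPM over the 38 WT libraries, among 10250 candidate genes. Libraries of a mouse and of a region share their source, so r is a description. For Aspa they included Ermn (r = 0.940) and Gjc3 (0.935), of which Ermn encodes a cytoskeletal protein of oligodendrocytes. For Acly they were Etnk1 (0.887), Erich3 (0.885) and Sdha (0.884), of which Sdha encodes a subunit of succinate dehydrogenase. For Nat8l they were Scrt1 (0.886), Extl3 (0.875) and Kcnab3 (0.874), of which Scrt1 encodes a neuronal transcription factor.

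The other members had weaker companions. For Acss1 the first was Nat8f4 (r = 0.768), for Slc25a1 Tspyl2 (0.764), for Acss2 Gjb6 (0.676), which encodes an astrocyte connexin, and for Crat Stxbp2 (0.623). Among the members themselves the highest r over the WT libraries was that of Acly with Slc25a1 (0.643), followed by Aspa with Slc25a1 (0.552), and the lowest was that of Nat8l with Aspa (-0.434).

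The levels of Aspa and Acly each followed a marker score closely. Over the 38 WT libraries Aspa had r = 0.931 with the oligodendrocyte score and Acly r = 0.837 with the striatal projection neuron score, and over all 78 libraries these were 0.944 and 0.840. Nat8l had r = 0.728 with the neuron score and 0.682 with the cortical excitatory neuron score. Acss2 had no score as close over the WT libraries, with r = -0.480 for striatal projection neurons and 0.466 for astrocytes. Over all 78 libraries, KO included, these were -0.182 and 0.214.

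**Figure D5:**
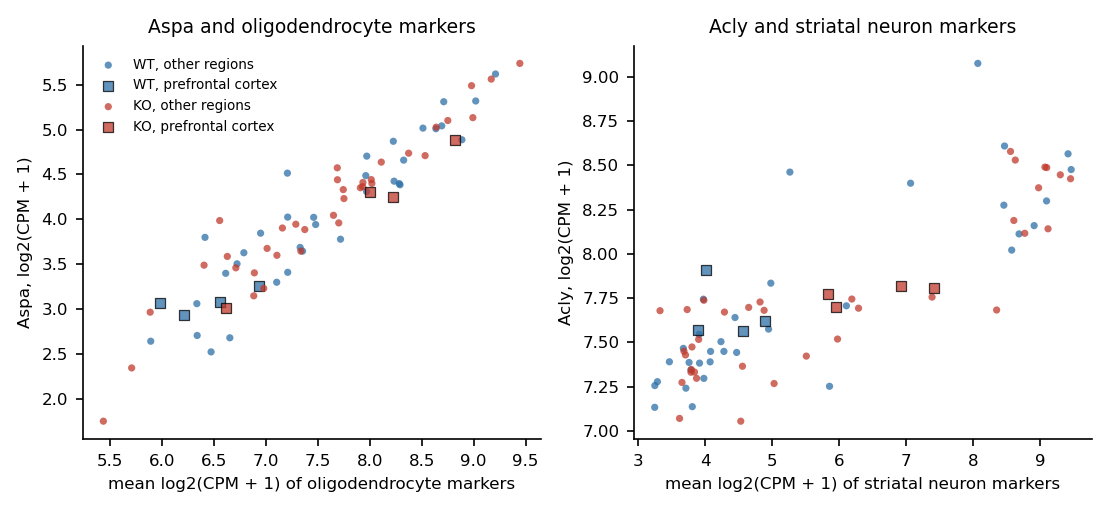
Aspa against the mean log2(CPM + 1) of oligodendrocyte markers (left) and Acly against that of striatal projection neuron markers (right), both members as log2(CPM + 1), with a point for each of 78 libraries and prefrontal cortex libraries as squares. Aspa rises with its markers in KO and WT libraries alike (r = 0.944), and Acly with its own (r = 0.840).

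No gene of the other routes into and out of acetyl-CoA was called between the genotypes. The 10 lists, with 91 genes, covered pyruvate dehydrogenase and its regulators, citrate handling, ketone bodies, fatty acid oxidation, thioesterases, N-acetylaspartate handling, carnitine transfer, lipid synthesis, acetyltransferases and deacetylases, and the shorter-chain acyl-CoA synthetases. Of the 85 tested over mice, 0 had an adjusted p under 0.05 in edgeR's quasi-likelihood test and 2 had an unadjusted p under 0.05, beside 3.56% of all genes. In the 7 regions 0 of 539 tests were called and 23 had an unadjusted p under 0.05, where the share over all genes ran from 1.59% to 8.58% by region. List medians of the log2 fold change over mice ran from -0.14 for N-acetylaspartate handling to 0.03 for carnitine transfer, beside a median of -0.000659 over all genes.

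Genes that had the lowest p of their list over mice had small log2 fold changes. Acot8, a peroxisomal thioesterase, had one of -0.21 ± 0.09. Rimkla, which joins N-acetylaspartate to glutamate, had -0.28 ± 0.13, Hadhb of fatty acid oxidation -0.17 ± 0.08 and Pdp1, a phosphatase that activates pyruvate dehydrogenase, -0.13 ± 0.09. Aco1, the cytosolic aconitase, had -0.08 ± 0.06, Slc33a1, the acetyl-CoA transporter of the endoplasmic reticulum, -0.09 ± 0.06, and the acetyltransferase Kat5 -0.06 ± 0.05. Slc25a29 had 0.11 ± 0.07 and Aasdh 0.12 ± 0.09. The adjusted p of each of these genes was 1 by edgeR's quasi-likelihood test. Slc13a3, a carrier that takes up N-acetylaspartate and was picked out after its values were seen, was the pathway gene closest to a call in a region, at -1.51 ± 0.35 in prefrontal cortex (adjusted p = 0.0991, edgeR's quasi-likelihood test). It passed the threshold of that test without WT mouse 23 (adjusted p = 0.0197), without WT mouse 12 (adjusted p = 0.0305) and without the filter on low counts (adjusted p = 2.11e-05). It was farther from the threshold without WT mouse 11 (-1.16, adjusted p = 0.818) and without KO mouse 1 (adjusted p = 0.337) by edgeR, and in DESeq2's Wald test (adjusted p = 0.138). The fit without the filter gave nearly the same fold change, -1.50, on 115895 degrees of freedom, against 15.5 with the filter. Its smaller p is thus not on the same footing.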

How the data were processed

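Read counts per gene, whole numbers with no normalization, were deposited by the authors in a table for each sex. Per the submitters' processing notes, STAR 2.5.2a, SAMtools 1.1, HTSeq 0.6.1, DESeq2, R 4.0.2 and GRCm38/mm10 were used; the annotation and the counting strand are not given in the sources used here. Groups and mouse numbers came from the titles. Levels are CPM by column total. KO and WT were compared with edgeR 4.0.16's quasi-likelihood test (limma 3.58.1, R 4.3.3; TMM; filterByExpr with minimum count 10 and total 15; sex as a term), with Benjamini-Hochberg adjustment over all genes and a threshold of 0.05, by region and on counts summed per mouse. Intervals are 95%. Alternatives were DESeq2 1.42.0, its size factors, no filter, each mouse left out, each sex, and the mouse as a block between regions. Positions and sequences are from GENCODE M21. All 9 members were named by rule, as were the 3 most correlated genes and the smallest p of each list; some of these are not reported here. Members and lists were chosen with earlier results of these data known. The fits were tested on simulated data. Same-numbered libraries come from the same animal, so the numbers pair regions and not genotypes. Over 210 same-mouse pairs of regions the mean r of deviations was 0.013, but single pairs ran from -0.276 to 0.502. The design text calls the samples of a group biological replicates.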

Additional observations from a re-analysis of the deposited data

Results flagged for a closer look

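A level was taken up here where the highest or lowest of 4 to 10 libraries or mice of a group lay apart from the rest by more than Dixon's 95% critical value. Chance alone gives about 5% of groups, and 15 of 144 groups met it.

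Nat8l gave 6 of them. It was 698 CPM in dorsal striatum of KO mouse 10 (others 219 to 303), 570.3 CPM in dorsal striatum of WT mouse 23 (others 209 to 289.7), 679.6 CPM in amygdala of WT mouse 23 (others 239.8 to 360.3) and 466.1 CPM over 4 regions in WT mouse 23 (others 280.3 to 316). Those 3 libraries are among the ones whose markers stand apart from their labelled region. Nat8l was also 414 CPM in dorsal hippocampus of KO mouse 4 (others 300.2 to 338) and 353.5 CPM in ventral hippocampus of WT mouse 11 (others 260.5 to 284).

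Acly gave 3. It was 181 CPM over 4 regions in KO mouse 10 (others 257 to 278), 182 CPM in amygdala of KO mouse 5 (others 207 to 215) and 239.7 CPM in prefrontal cortex of WT mouse 3 (others 188 to 196). Acss2 gave 2, 48.6 CPM in cortex of WT mouse 13 (others 59.4 to 62.7) and 12.7 CPM in prefrontal cortex of KO mouse 4 (others 7.10 to 7.91), the latter on 12 counts. Crat was 55.0 CPM in dorsal hippocampus of WT mouse 23 (others 42.8 to 46.4), and Slc25a1 50.1 CPM in amygdala of WT mouse 12 (others 32.3 to 36.997). Acot12 was 0.756 CPM in amygdala of WT mouse 3 (others 0.238 to 0.262) and 1.104 CPM, a single count, in ventral hippocampus of WT mouse 23 (others 0).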

How the results depend on the processing

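The count of members other than Acss2 called between genotypes was 0 under every alternative run, and Acss2 kept its direction in all of them. Acss2 lost its call within a sex in female amygdala (-2.85, adjusted p = 0.982), dorsal striatum of females (-2.97, 0.0822) and males (-2.74, 0.0506) and ventral striatum of females (-2.68, 0.801) and males (-3.10, 0.0888), all by edgeR's quasi-likelihood test on fewer samples. Called region pairs of members in WT were 26, 25 with the mouse as a replicate block, 41 with all libraries and the replicate block, and 17 to 39 when a mouse was left out. No genotype comparison was fitted with the block, since KO and WT are different mice.

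Small changes over mice crossed 0 without being called. Equal weight of regions in limma gave 0.0334 for Acly and 0.0210 for Crat, and the 3 deeper regions gave 0.0138 for Acss3. Without the mice whose libraries stand apart Acss3 was 0.25, Acot12 0.26, Crat 0.0316 and Nat8l -0.0048. Leaving out a mouse gave -0.15 to 0.22 for Acss3, -0.0883 to 0.0689 for Acly, -0.17 to 0.15 for Nat8l, -0.0286 to 0.0089 for Crat, -0.0057 to 0.0628 for Slc25a1 and -0.27 to 0.14 for Acot12. Counts of called genes moved most in prefrontal cortex, from 11 to 367 with no filter, 42 with DESeq2, 50 among females and 7 to 102 without a mouse. In ventral hippocampus they went from 1 to 101 with no filter, and for the interaction from 0 to 117 with no filter and to 15 without mouse 6. The causes were not tested. Depth limits Acot12, Acss3 and Aspa in the shallower regions.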
